A study of Mus musculus with 8 samples.

Results

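Dimethylation and trimethylation of lysine 4 on histone H3 (H3K4me2 and H3K4me3) were compared within wild-type bone marrow stroma. All islands of both marks on the 19 autosomes were taken, 35291 of H3K4me2 and 17395 of H3K4me3. They are 52686 of the 158177 islands in the 7 peak lists of the series. An island counted as carrying the other mark when the islands shared 1 bp or more. By chromatin immunoprecipitation and sequencing, the study mapped the Polycomb-associated protein ASXL1 in wild type, and 3 histone marks (those of H3K4, and H3K27me3) in wild-type and in Asxl1-/- cells. Every library used below came from wild-type C57BL/6 cells, mesenchymal stem and progenitor cells grown out of bone marrow in MesenCult medium and taken at passages 5 to 10. The number of animals or cultures behind a library is not given in the sources used here. Each target in wild type is 1 library, so no difference below could be tested, and no p-value is given. Intervals after shares are 95% exact binomial (Clopper-Pearson) intervals and cover counting error only.

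Methyl groups are added to lysine 4 of histone H3 one after another by the SET1 and MLL (KMT2) enzyme complexes. H3K4me3 is known for its concentration at promoters that are active or rich in CpG dinucleotides, while H3K4me2 reaches further, over the sides of promoters and over many enhancers. H3K27me3, the mark left by Polycomb repressive complex PRC2, is common at CpG-rich promoters of developmental genes that a cell type does not use. In marrow, the stroma supports blood formation through factors such as Cxcl12 and can form bone, fat and cartilage.

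The start regions of 6 genes show the states that were compared. Each line gives the 250 bases before a RefSeq start, on the gene's strand and with every CpG in capitals, from RefSeq on GRCm38.p6, whose coordinates are those of mm10. A mark counted at a start when an island lay within 1000 bp of it. Ihh and Wnt3a, which encode signalling ligands of the Hedgehog and Wnt families, had H3K4me2 without H3K4me3 and also had H3K27me3.
Ihh: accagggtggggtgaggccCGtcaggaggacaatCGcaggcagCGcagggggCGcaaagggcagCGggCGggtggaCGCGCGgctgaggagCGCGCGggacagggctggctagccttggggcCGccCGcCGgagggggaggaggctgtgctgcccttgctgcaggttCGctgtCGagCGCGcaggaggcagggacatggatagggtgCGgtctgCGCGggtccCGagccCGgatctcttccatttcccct
Wnt3a: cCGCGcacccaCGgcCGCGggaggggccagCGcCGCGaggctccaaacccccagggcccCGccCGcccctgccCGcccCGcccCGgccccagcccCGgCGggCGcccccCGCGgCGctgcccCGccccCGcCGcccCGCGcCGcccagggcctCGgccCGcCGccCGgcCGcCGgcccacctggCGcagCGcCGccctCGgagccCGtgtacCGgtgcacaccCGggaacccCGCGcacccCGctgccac
Il33, an alarmin cytokine, and Fcer1g, the gamma chain of immunoglobulin Fc receptors, had H3K4me2 without H3K4me3 and no H3K27me3.
Il33: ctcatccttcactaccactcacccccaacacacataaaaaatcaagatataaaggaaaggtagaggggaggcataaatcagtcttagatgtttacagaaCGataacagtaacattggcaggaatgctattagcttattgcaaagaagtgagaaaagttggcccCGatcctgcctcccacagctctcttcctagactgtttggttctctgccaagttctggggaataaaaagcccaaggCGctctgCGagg
Fcer1g: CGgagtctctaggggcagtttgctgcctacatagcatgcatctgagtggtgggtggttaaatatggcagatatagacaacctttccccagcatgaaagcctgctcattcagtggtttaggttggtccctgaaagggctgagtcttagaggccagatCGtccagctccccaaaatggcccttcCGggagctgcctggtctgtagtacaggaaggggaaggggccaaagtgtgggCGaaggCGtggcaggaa
Cxcl12, the chemokine that retains blood stem cells in marrow, and Sparc, a collagen-binding matrix protein of bone, had both marks.
Cxcl12: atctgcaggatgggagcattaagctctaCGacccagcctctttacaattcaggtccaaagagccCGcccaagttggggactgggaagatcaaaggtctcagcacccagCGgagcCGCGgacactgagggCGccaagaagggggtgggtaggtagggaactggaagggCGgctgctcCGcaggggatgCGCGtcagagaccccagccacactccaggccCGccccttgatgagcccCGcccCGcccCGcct
Sparc: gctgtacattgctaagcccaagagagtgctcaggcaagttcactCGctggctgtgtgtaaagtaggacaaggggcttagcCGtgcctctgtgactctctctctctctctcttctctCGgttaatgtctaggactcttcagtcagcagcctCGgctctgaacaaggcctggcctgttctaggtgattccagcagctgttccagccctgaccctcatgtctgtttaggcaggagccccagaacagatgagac
The Ihh stretch, chr1:74951673-74951922 on the minus strand, held 24 CpG, and the Wnt3a stretch, chr11:59290752-59291001 on the minus strand, held 41. The Il33 stretch, chr19:29924863-29925112 on the plus strand, held 4, and the Fcer1g stretch, chr1:171234350-171234599 on the minus strand, held 5. The Cxcl12 stretch, chr6:117168285-117168534 on the plus strand, held 14, and the Sparc stretch, chr11:55420081-55420330 on the minus strand, held 4. Sparc carried both marks at as few CpG as Il33. The 6 genes were chosen as examples after their values had been seen.

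At these starts, the H3K4me2 island of Ihh spanned chr1:74947601-74952600 (5 kb), and the nearest H3K4me3 island was 95.1 kb from the start. The Wnt3a island spanned 3 kb, with H3K4me3 13.9 kb away. The islands of Il33 and Fcer1g spanned 4 and 3.4 kb, with H3K4me3 22.9 and 10.3 kb from their starts. At Cxcl12, H3K4me2 spanned chr6:117166401-117177000 (10.6 kb) and H3K4me3 7.8 kb inside it, so that H3K4me2 ran on for 0.2 kb upstream and 2.6 kb downstream. At Sparc, H3K4me2 spanned chr11:55408601-55422200 (13.6 kb) and H3K4me3 8.4 kb, and H3K4me2 ran on for 1.6 kb upstream and 3.6 kb downstream. The Cxcl12 start also had H3K27me3 and ASXL1 within 1000 bp, and the Sparc start ASXL1 alone.

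The lists held 136.6 Mb of H3K4me2 and 66.9 Mb of H3K4me3, with median island widths of 3 and 3.4 kb. Depth could not be read from the lists, which give no read counts, and an island that is missing from a list may still hold signal below the caller's threshold. Of 23 genes listed for stromal stem cells and pericytes, 17 had both marks at an end and none with H3K4me2 alone, among them Cxcl12, Pdgfra, Pdgfrb and Prrx1, and only Lepr had neither mark. Of the defining blood genes, Ptprc, Cd3e and Itgam had neither mark, as had Pecam1 and Cdh5 of endothelium and Alb of liver. Both marks stood at 10 of 24 blood genes, among them the transcription factors Spi1 and Runx1, and at 4 of 18 endothelial genes. They also stood at 7 of 17 epithelial genes, among them Cdh1 and Epcam, at 7 of 16 neuronal and 6 of 14 smooth muscle genes. None of 12 liver genes had both, beside 53.7% of all genes. The part of other cells in the culture in any value below was not tested.

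More H3K4me2 islands lacked H3K4me3 than had it, whereas almost every H3K4me3 island had H3K4me2. Without H3K4me3 were 18456 H3K4me2 islands, 52.3% of the list (interval 51.8 to 52.8%). Without H3K4me2 were 95 H3K4me3 islands, 0.546% of theirs (0.442 to 0.667%). H3K4me2 islands without H3K4me3 had a median width of 2 kb and covered 44.8 Mb, and those with it had a median width of 4.6 kb and covered 91.8 Mb. Over the autosomes, the share of H3K4me2 islands without H3K4me3 ranged from 48.6% to 57% with an SD of 2.62 percentage points. When only the widest H3K4me2 islands were kept, those of 5200 bp or more, up to the covered length of the whole H3K4me3 list, the H3K4me2 share without H3K4me3 was 12.6% and the H3K4me3 share without H3K4me2 was 55.4%.

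**Figure D1:**
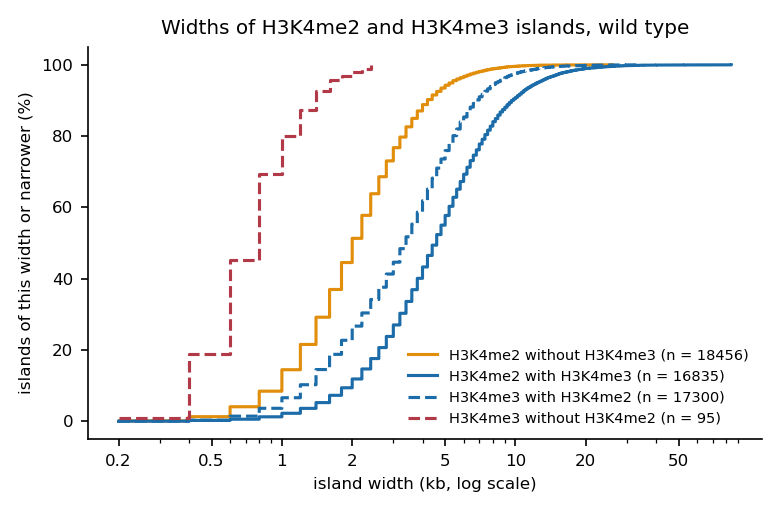
Cumulative share of islands (%) against island width (kb, log scale) for H3K4me2 with and without H3K4me3 and H3K4me3 with and without H3K4me2, wild type, 1 library per mark. The 18456 H3K4me2 islands without H3K4me3 lie to the left of the 16835 with it (medians 2 and 4.6 kb), and the 95 H3K4me3 islands without H3K4me2 reach no further than 2.4 kb.

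The islands without H3K4me3 were mostly separate places and not fragments next to an H3K4me3 island. Their median gap to the nearest H3K4me3 island was 22.6 kb, with quartiles of 8 and 57.8 kb. Only 709 of them (3.84%) lay within 1000 bp of H3K4me3, and 27 touched it. Beyond 100 kb from any H3K4me3 island lay 2587 of them (14%). They were often near each other, since 30.4% had another such island within 5 kb. At the other edge of the overlap rule, 34 H3K4me2 islands counted as carrying H3K4me3 through a shared 200 bp, against a median shared length of 3200 bp.

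H3K4me2 without H3K4me3 lay away from the ends of genes, and H3K4me2 with H3K4me3 lay at them. An end here is the first or last base of a protein-coding gene with 1000 bp on either side. Only protein-coding genes were considered, so an island between genes may lie in a non-coding gene. Of the H3K4me2 islands without H3K4me3, 8.12% reached an end, 50.8% lay inside a gene away from its ends and 41.1% lay between genes. Of those with H3K4me3, 65.5% reached an end, 19.1% lay inside a gene and 15.4% between genes. The median distance of the first group to a gene end was 23.1 kb, and 69.6% of it lay more than 10 kb away.

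The share of H3K4me2 islands without H3K4me3 differed by width and by place. At gene ends it was 58.7% among islands of up to 1000 bp, 44% from 1200 to 2000 bp, 15.7% from 2200 to 4000 bp and 3.2% above 4000 bp. Away from gene ends it was 90.6%, 86.9%, 73.8% and 43.8% in the same order. In every width class the share was higher away from gene ends, and the intervals did not overlap.

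ASXL1, a Polycomb-group protein and partner of the histone deubiquitinase BAP1, was found at 30.9% of H3K4me2 islands without H3K4me3 (30.2 to 31.6%) and at 75.3% of those with it (74.6 to 75.9%). Neither ASXL1 nor H3K27me3 had a part in choosing the islands. In percentage points, the difference in ASXL1 was largest above 4000 bp, both at gene ends and away from them. Above 4000 bp, ASXL1 was at 60.6% of the islands without H3K4me3 and at 92.3% of those with it. Up to 1000 bp, it was at 14.1% and 19.6%. Among these narrow islands, ASXL1 was at 5.42% without and 29.9% with H3K4me3 at gene ends, and at 14.7% and 14.9% away from them. The share among islands without H3K4me3 was 58.6% when the wider 50% of each list was used, and 67% when only the widest H3K4me2 islands were kept, as above. Library names in the ASXL1 and H3K4me3 lists share a code that the H3K4me2 and H3K27me3 lists lack. Its meaning is not given, and its part in the overlap was not tested.

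H3K27me3 divided the islands by place. At gene ends, H3K27me3 was at 51.2% of the H3K4me2 islands without H3K4me3 of up to 1000 bp (43.3 to 59%) and at 52.1% of those from 1200 to 2000 bp (47.7 to 56.4%). Above 4000 bp it was at 17.6%. Away from gene ends, H3K27me3 was at 11.9% of the narrowest islands without H3K4me3 and at 3.18% of the widest. The islands with H3K4me3 had H3K27me3 at 41%, 46.9%, 35.6% and 14.4% of gene ends in the 4 width classes, and the intervals of the groups with and without H3K4me3 overlapped in each class there. Away from ends, the islands with H3K4me3 had H3K27me3 at 21.8%, 28.9%, 18.4% and 8.25%, above the islands without H3K4me3 in every class. Over all places, H3K27me3 was at 10.1% of the H3K4me2 islands without H3K4me3, and at 4.66% of them when only the widest H3K4me2 islands were kept, as above.

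**Figure D2:**
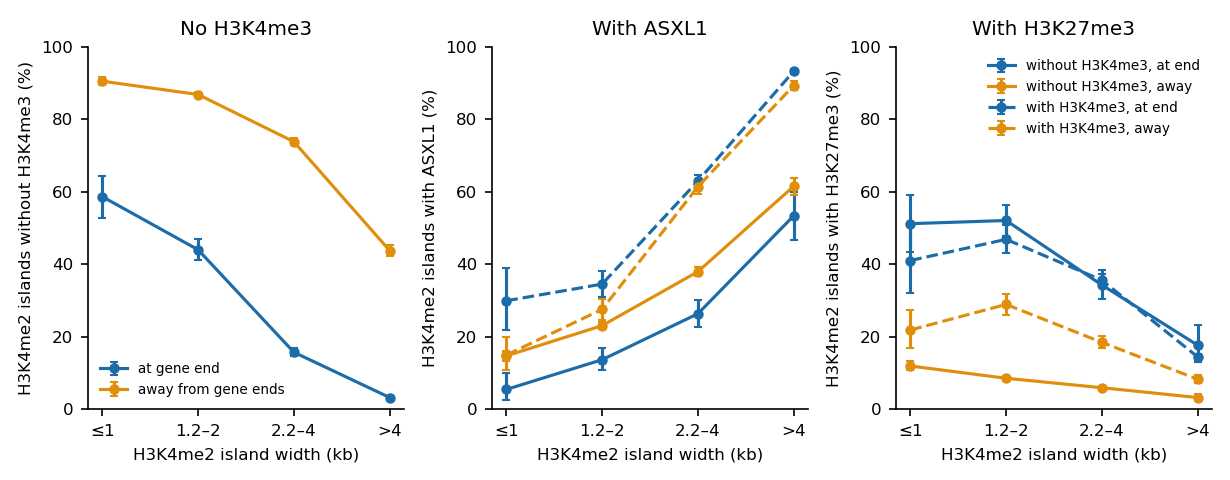
Share of H3K4me2 islands (%) without H3K4me3 (left), with ASXL1 (middle) and with H3K27me3 (right) against H3K4me2 island width in 4 classes (kb), at gene ends (blue) and away from them (orange), and with (dashed) or without (solid) H3K4me3. Bars are 95% exact binomial intervals. Above 4000 bp, 3.2% of islands at ends and 43.8% of those away from ends lack H3K4me3.

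Base by base, 64.4 Mb carried both marks, which is 47.1% of all H3K4me2 and 96.3% of all H3K4me3. A further 25.8 Mb of H3K4me2 (18.9%) lay beyond the edges of H3K4me3 in islands that had it, and 1.65 Mb lay between H3K4me3 islands under 1 H3K4me2 island. H3K4me2 islands without H3K4me3 made up the other 32.8%. H3K4me3 beyond H3K4me2 came to 2.43 Mb. ASXL1 covered 76.5% of the bases with both marks, 47.3% of the H3K4me2 flanks and 36% of the H3K4me2 islands without H3K4me3. H3K27me3 covered 11.2%, 11.5% and 7.14% of the same bases. Of all bases under ASXL1, 25.2% had neither H3K4 mark.

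Where 1 H3K4me2 island met 1 H3K4me3 island, H3K4me2 was mostly the wider, and the median margin per side was small. In 15038 cases 1 H3K4me2 island met exactly 1 H3K4me3 island and the reverse. H3K4me2 was the wider in 81.5% of these pairs and the narrower in 12.1%. It ran beyond H3K4me3 on both sides in 47.9%, on 1 side in 40.8% and on neither in 11.3%. The median overhang per side was 400 bp, which is 2 steps of the 200 bp grid on which islands are given. The quartiles were 0 and 1000 bp and the 95th percentile 2800 bp. H3K4me3 ran beyond H3K4me2 on at least 1 side in 27.6% of pairs. Apart from the pairs, 863 H3K4me2 islands held 2 or more H3K4me3 islands, and 496 H3K4me3 islands met 2 or more H3K4me2 islands.

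The overhang leaned into the gene. In 7146 pairs the H3K4me3 island held RefSeq starts of 1 strand only, so that both sides could be ordered by the direction of transcription. Upstream, H3K4me2 ran on for a median of 200 bp (mean 349 bp), and downstream for a median of 600 bp (mean 854 bp). The downstream overhang was the larger in 59% of these pairs (57.8 to 60.1%), the upstream in 32.4%, and they were equal in 8.68%. On plus-strand starts the share with the larger downstream overhang was 59.4%, and on minus-strand starts 58.5%. The share was 59.6% in the pairs without an end of another gene inside the H3K4me2 island.

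Overhangs were larger where ASXL1 was present. Among H3K4me3 islands of 1200 to 2000 bp, H3K4me2 exceeded H3K4me3 by a median of 1400 bp over both sides with ASXL1 and 800 bp without it. In the class up to 1000 bp these medians were 1600 and 800 bp. They came closer from 2200 to 4000 bp, at 1000 and 600 bp, and above 4000 bp, at 1000 and 700 bp. With H3K27me3 present the median was 800 bp in every width class, and without it 1000 bp in all but the class of 1200 to 2000 bp, where it was 1200 bp.

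**Figure D3:**
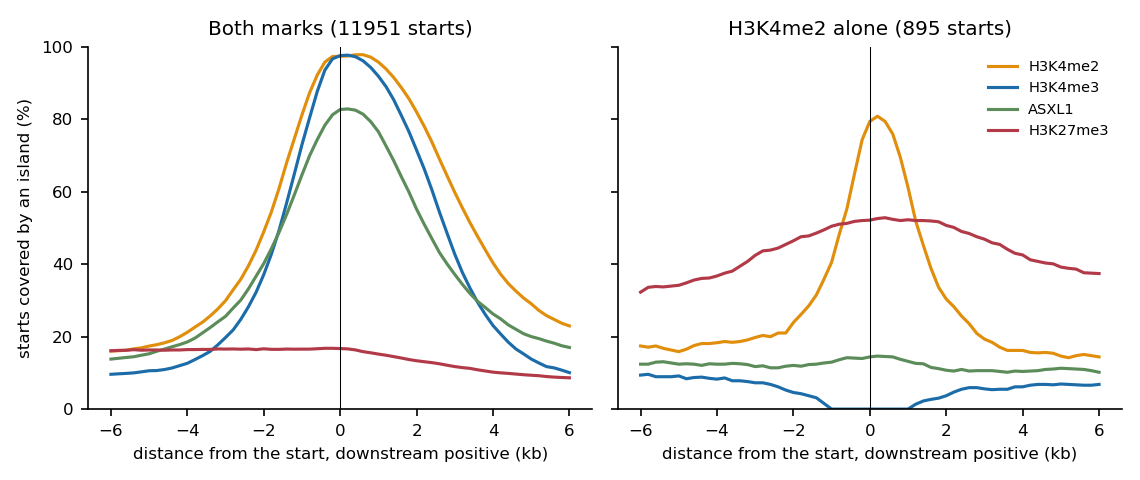
Share of RefSeq starts covered by an island (%) against distance from the start (kb, downstream positive), for 11951 starts with both marks (left) and 895 with H3K4me2 alone (right), wild type. At starts with both marks, H3K4me2 covers 82% and H3K4me3 71.5% at 2000 bp downstream, against 49% and 37.1% at 2000 bp upstream. At starts with H3K4me2 alone, H3K4me3 is at 0 within 1000 bp because the starts were chosen so, and H3K27me3 covers 52.2% at the start.

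Both marks covered more of the downstream than of the upstream side of starts. Among 11951 starts with both marks, H3K4me2 covered 82% at 2000 bp downstream and 49% at 2000 bp upstream, and H3K4me3 71.5% and 37.1%. At 895 starts with H3K4me2 alone it covered 79.4% of the start positions, 61.2% at 1000 bp downstream and 40.6% at 1000 bp upstream. H3K27me3 covered 52.2% of the latter starts and 16.7% of the starts with both marks. ASXL1 covered 14.4% and 82.7% of them.

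Large overhangs were at Yap1, Rbpj, Iqsec1, Srebf2 and Mink1. At Yap1, the Hippo pathway coactivator, H3K4me2 spanned chr9:7975001-8008800 (33.8 kb) and ran 22.6 kb beyond a 12.4 kb H3K4me3 island. At Rbpj, the DNA-binding partner of Notch receptors, it spanned 26.4 kb around 2.8 kb of H3K4me3 and ran on for 19.8 kb on 1 side. Iqsec1, an exchange factor for ARF GTPases, had an overhang of 19.2 kb, and Srebf2, the transcription factor of cholesterol synthesis, 19 kb. Mink1, a kinase, had 16.6 kb. ASXL1 lay over 22.6 kb of the overhangs at Yap1 and over 9.8 kb at Rbpj, and H3K27me3 over 0 kb at each of these 5 genes. Yap1 lies in a stretch of chromosome 9 in which ASXL1 covered 35.7% of 1 Mb and 31.8% of the next, beside a median of 2.07% over all 1 Mb stretches. Its part in the Yap1 value was not tested.

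The 95 H3K4me3 islands without H3K4me2 were narrow and few. Their median width was 0.8 kb and 76 of them were 1 kb or less. Their median gap to the nearest H3K4me2 island was 31.4 kb, and 22 lay more than 100 kb from one. Beside 62.7% of the H3K4me3 islands with H3K4me2, only 29 of the 95 (30.5%) reached a gene end. The widest of these were at Pcdhb2, a clustered protocadherin (2.4 kb), Snurf (1.8 kb), Arpc1b, a subunit of the actin-nucleating Arp2/3 complex (1.6 kb), and the shared promoter region of Peg3 and Usp29 (1.6 kb). Snurf and Peg3 are imprinted genes, expressed from the paternal copy. The Snurf island spanned chr7:60003601-60005400, and no H3K4me2 island lay within 238 kb. For the Peg3 island, chr7:6728801-6730400, this gap was 329 kb. Pnp2, Zfp773 and Cers4 followed with 1.4 kb each. ASXL1 was at 11 (11.6%) and H3K27me3 at 14 (14.7%) of the 95, beside 75.6% and 19.6% of the H3K4me3 islands with H3K4me2. Among H3K4me3 islands of up to 1000 bp, ASXL1 was at 11.8% without and 27.6% with H3K4me2, and H3K27me3 at 14.5% and 31.3%.

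Of 20665 autosomal protein-coding genes, 1058 (5.12%) had H3K4me2 without H3K4me3 at an end and H3K4me3 at neither end. A further 1213 (5.87%) had H3K4me2 without H3K4me3 at 1 end and H3K4me3 at the other. Both marks, with no end bearing H3K4me2 alone, were found at 11098 genes (53.7%), H3K4me3 alone at 57, and neither mark at 7239 (35%). With only the widest H3K4me2 islands kept, as above, the first group held 195 genes and the second 556. Among the first group, 782 genes have a known strand, and 62.4% of these had H3K4me2 alone at the first end only, 22.3% at the last end only and 15.3% at both. Among the second group, 937 genes have a known strand, and in 91.4% of them H3K4me2 alone was at the last end. Over all 16457 genes of known strand, 58% of first ends had both marks and 4.19% H3K4me2 alone, against 12.8% and 6.99% of last ends.

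In the first group the H3K4me2 island at the end held no H3K4me3 anywhere in 861 of 1058 genes, and held it further along in 197. The 12 widest islands of the group were all of the second kind. Rara, the retinoic acid receptor alpha, led with an island of 48.6 kb, chr11:98925401-98974000, that held 4 H3K4me3 islands, the nearest of them 2.6 kb from the first end of the gene. Cep295nl (40.2 kb), Hoxc8, a homeobox factor of body position (37.8 kb), Cxcr5, a chemokine receptor of lymphocytes (36.2 kb), Hdac7, a histone deacetylase (30 kb), and Pde4c, a cyclic AMP phosphodiesterase (30 kb), came next. Gpbar1, the bile acid receptor (29.4 kb), Spaca4 (22.4 kb), Myo1h (21.8 kb), Cabp2 (17.8 kb), Rin2 (17 kb) and Sp2 (17 kb) completed them. From the end of the gene, the nearest H3K4me3 was between 1.02 kb (Rin2) and 8.39 kb (Cxcr5) away in these 12 genes.

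Among genes whose island held no H3K4me3, named here after their values had been seen, Atp6v0e2, a subunit of the vacuolar proton pump, had the widest, 16.2 kb at its first end, with H3K4me3 16 kb away. Mmp27 and Mmp8, neighbouring matrix metalloproteinases, shared an island of 11.2 kb, chr9:7564801-7576000, with H3K4me3 22.2 kb from the end of Mmp27. It lay whole under ASXL1, in the same stretch of chromosome 9 as Yap1. Krt8, an epithelial keratin, had 6.2 kb at its first end, with H3K27me3 over 1.8 kb of it.

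In the second group, where H3K4me3 marked the other end, the widest islands lay over the far end of a gene or within 1000 bp of it. Bcl9l, a Wnt pathway coactivator, led with the 36.2 kb island that also reached Cxcr5. Smad7, the inhibitor of transforming growth factor beta signalling (33.2 kb), and Spryd3 and Tns2, which share an island of 33.2 kb, followed. Pycrl (30.2 kb), Csf1, the growth factor of macrophages (30 kb), and Slc48a1, a haem transporter (30 kb), came after them. ASXL1 was at the end of 495 of the 1213 genes of this group (40.8%) and H3K27me3 at 176 (14.5%). In the first group these were 201 of 1058 (19%) and 531 (50.2%). The end read was mostly the last end in the second group and a first end in the first. Over all first ends with H3K4me2 alone, ASXL1 was at 17.7% and H3K27me3 at 59.4%, against 38.9% and 17% of such last ends. The part of this in the difference between the groups was not tested.

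The first RefSeq start was then examined in the 16457 genes with a start on 1 strand, which are 79.6% of the genes. A mark counted at a start when an island lay within 1000 bp of it, so it need not cover the start. Starts with H3K4me2 alone stood between the marked and the unmarked in CpG content. Counted over 300 bases, 250 before the start and 50 after, 9756 starts with both marks had a median of 22 CpG (quartiles 15 and 30). The 656 starts with H3K4me2 alone had 9 (quartiles 5 and 17.2), and 6016 starts with neither mark had 3 (quartiles 1 and 6). Fewer than 10 CpG were found at 50.9% of the starts with H3K4me2 alone, 11.8% of those with both marks and 88.4% of those with neither. Of the 656, 31 belong to genes with H3K4me3 at another RefSeq start.

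The starts with H3K4me2 alone differed in the other marks they bore. H3K27me3 without ASXL1 was at 379 (57.8%, interval 53.9 to 61.6%), with a median of 15 CpG and a median H3K4me2 width of 1.8 kb. ASXL1 without H3K27me3 was at 82 (12.5%), with a median of 5 CpG and a width of 4.1 kb. Neither was at 176 (26.8%), with 5 CpG and 2.4 kb, and both were at 19. The H3K4me2 island held H3K4me3 further along at 53 of the 258 starts without H3K27me3 (20.5%) and 26 of the 398 with it (6.53%). Over all gene ends with H3K4me2 alone, ASXL1 was at 46.9% where the island held H3K4me3 elsewhere and at 21.6% where it held none. Ihh and Wnt3a, printed above, are among the 379, Il33 among the 82 and Fcer1g among the 176. Among starts with both H3K4 marks, ASXL1 without H3K27me3 was at 75.6% and H3K27me3 without ASXL1 at 10.3%.

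H3K27me3 at the starts with H3K4me2 alone followed the CpG count. It was at 23.6% of those with up to 4 CpG, 44.6% with 5 to 9, 81.3% with 10 to 19, 93.2% with 20 to 29, and 100% of the 62 with 30 or more. At starts with both marks it stayed between 17.4% and 20.1% in the same classes. At starts with neither mark it went from 18% to 70.1%. At equal CpG the starts with H3K4me2 alone thus had H3K27me3 more often than the starts with both marks in every class from 5 CpG up, with intervals that did not overlap, and no test of this could be made. ASXL1 went the other way, from 27.4% at up to 4 CpG to 0 of 62 at 30 or more, against 67% and 88.5% at starts with both marks. Over all CpG classes H3K27me3 was at 60.7% of the starts with H3K4me2 alone. When the H3K4me2 list was cut to its widest islands, of the covered length of H3K4me3, 86 such starts were left, and 32.6% of them had H3K27me3.

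**Figure D4:**
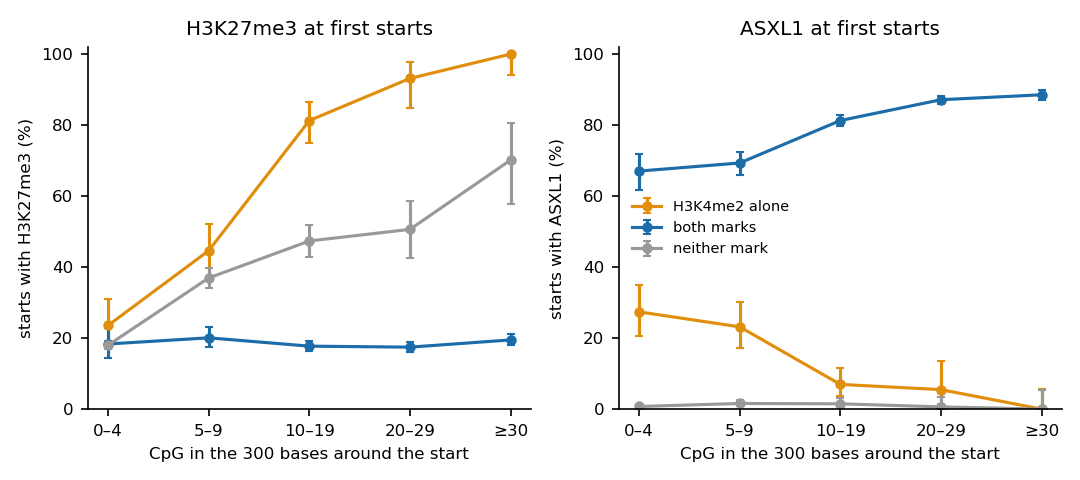
Share of first starts (%) with H3K27me3 (left) and ASXL1 (right) against the number of CpG in the 300 bases around the start, for starts with H3K4me2 alone (orange, n = 656), both marks (blue, n = 9756) and neither (grey, n = 6016). Bars are 95% exact binomial intervals. H3K27me3 is at 23.6% of starts with H3K4me2 alone and up to 4 CpG and at 100% of those with 30 or more, and stays between 17.4% and 20.1% at starts with both marks.

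Short motifs were counted by their letters, on both strands, in the same 300 bases. GGGCGG, the core of the SP1 site, was in 68.6% of the windows with both marks, 39.8% of those with H3K4me2 alone, 13.6% of those with neither and 47.3% of all 16457. TATAAA, the TATA box, was in 6.43%, 11.6%, 25.3% and 13.5% in the same order. CCGGAAGT, an ETS-type site, was in 8.64% of the windows with both marks and in 0.915% of those with H3K4me2 alone, close to the 0.781% of windows with neither. TGANTCA, the AP-1 site, was in 9.76% with H3K4me2 alone, 4.33% with both marks and 11.4% with neither. None of these motifs contains another. GGGCGG holds a CpG, as does CCGGAAGT, so their shares move with the CpG count.

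Gene lists were read against the 5.12% of all genes with H3K4me2 alone and H3K4me3 at neither end. Of the 23 lists, 16 stood above it, among them lists of other tissues and of the lineages and matrix of stroma. Of the 1058 genes behind this share, 50.2% had H3K27me3 at the end, and where both ends had H3K4me2 alone the end with the wider island was read. Alone means no H3K4me3 within 1000 bp of that end. The islands of Prss8, Hoxd4, Shh, Col12a1, Il34, Hoxc8 and Plvap held H3K4me3 further along, 1.05 kb (Prss8) to 2.81 kb (Plvap) from the end. At Slc17a7, H3K4me3 lay 1.12 kb from the end, outside its island. The epithelial list had 6 of 17, namely the keratins Krt8, Krt18 and Krt19, the tight junction protein Cldn7, the transcription factor Grhl2 and the protease Prss8. H3K27me3 was at the ends of all of these but Prss8. The neuronal list had 4 of 16, the GABA-synthesizing enzyme Gad2, the vesicular glutamate transporter Slc17a7, the RNA-binding Elavl3 and the tubulin regulator Stmn2, each with H3K27me3. The striated muscle list had 3 of 15 (Acta1, Nkx2-5 and Tnnt2) and the endothelial list 3 of 18 (Cldn5, Plvap and Tie1), with H3K27me3 at all of these but Tnnt2 and Tie1. The blood list had 4 of 24, the cytokine receptors Csf1r and Kit, the lymphoid factor Ikzf1 and Fcer1g, with H3K27me3 at Kit and Ikzf1 only. H3K4me2 at the Kit start was 1.6 kb wide and 402 kb from the nearest H3K4me3 island. The liver list had 1 of 12, the transcription factor Foxa2, with H3K27me3, and 11 of 12 with neither mark. Each list is small, and no list was tested.

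The lists of lineages that stroma can form were mixed. Of 21 bone genes, 9 had both marks with no end of H3K4me2 alone, among them Runx2, the master factor of bone formation, Alpl and Sparc. A further 5 had H3K4me2 alone at 1 end and H3K4me3 at the other, including the collagen genes Col1a1 and Col1a2 and the bone factor Sp7. The H3K4me2 island at the far end of Col1a1 was 26.4 kb wide and held H3K4me3, and that of Col1a2 was 8.2 kb and held none. The late bone genes Bglap2 and Mepe, and Dlx3, had H3K4me2 alone (14.3% of the list), with H3K27me3 at Dlx3 only. Of 18 fat genes, 10 had both marks, among them Pparg and Cebpa, and the hormone Retn and the uncoupling protein Ucp1 had H3K4me2 alone, both with H3K27me3. Of 19 cartilage genes, 9 had both marks, among them Sox9, and Ihh, Col9a2 and Col11a2 had H3K4me2 alone, all with H3K27me3. Of 14 smooth muscle genes, 6 had both marks, among them Acta2 and Tagln, 4 had H3K4me2 alone at 1 end and H3K4me3 at the other, and Myh11, the myosin of mature smooth muscle, and its coactivator Myocd had H3K4me2 alone, both with H3K27me3. Of the 23 stromal genes, Thy1, Nes, Nt5e and Ebf1 (17.4%, beside 5.87% of all genes) had H3K4me2 alone at 1 end and H3K4me3 at the other. Rgs5, a pericyte gene, had H3K4me2 alone with H3K4me3 at neither, 1.2 kb at its last end and without H3K27me3.

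Lists that hold secreted signals had shares with H3K4me2 alone above and below the 5.12% of all genes. Among 26 chemokines and cytokines, 5 (19.2%) had H3K4me2 alone, Il34, Il33, Lif, Ccl20 and Cxcl14, against 9 with both marks such as Ccl2 and Cxcl1. H3K27me3 was at the end of Cxcl14 alone among the 5, while Il34, Il33 and Lif had ASXL1. In the Wnt list, 3 of 39 members (7.69%) had H3K4me2 alone, the ligands Wnt7a, Wnt3a and Wnt8a, with H3K27me3 at Wnt7a and Wnt3a. In the Notch and Hedgehog list, the ligands Shh and Dll3 and the target Heyl had H3K4me2 alone (12.5%), each with H3K27me3. All 24 members had a mark. In the FGF list, 3 of 20 (15%) had H3K4me2 alone, all of them ligands (Fgf21, Fgf1 and Fgf3). H3K27me3 was at Fgf3 and at the first start, not the last end, of Fgf21. In the list of transforming growth factor beta and bone morphogenetic proteins, only the ligand Gdf5 of 32 had H3K4me2 alone (3.1%), without H3K27me3. Of 20 matrix proteases and inhibitors, only Mmp8 had H3K4me2 alone (5%), without H3K27me3. Of 21 collagens beyond those of bone, Col15a1, Col12a1 and Col7a1 had H3K4me2 alone (14.3%), and the end with the wider island had no H3K27me3 in each, while the first start of Col15a1 had it.

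The Hox genes, which set position along the body, had 8 of 39 with H3K4me2 alone. H3K27me3 was at the ends of 7 of these, Hoxb5, Hoxb6, Hoxb9, Hoxb13, Hoxd4, Hoxd11 and Hoxd13, with islands of 1 to 2.6 kb. The eighth, Hoxc8, had no H3K27me3 at that end and lay at the edge of the 37.8 kb island described above.

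No gene of 4 lists had H3K4me2 alone and H3K4me3 at neither end. All 28 ribosomal and housekeeping genes had both marks with no end of H3K4me2 alone, beside 53.7% of all genes. So had 18 of 19 immediate early genes, the exception being Egr2, with H3K4me2 alone at 1 end. Of 21 genes listed for H3K4 methylation, 17 had both marks, and Kmt2a and Cxxc1 (9.52%) had H3K4me2 alone at 1 end. Besides methylating enzymes and cofactors, this list holds the demethylases Kdm1a, Kdm1b, Kdm5a and Kdm5b, and Asxl1, Asxl2 and Bap1, all with both marks. Of 16 Hippo pathway genes and YAP targets, 7 (43.8%) had it at 1 end with H3K4me3 at the other (Yap1, Tead2, Ankrd1, Ajuba, Nuak2, Ptpn14 and Edn1), beside 5.87% of all genes. Over all 23 lists, 59 genes had H3K4me2 alone and H3K4me3 at neither end, and H3K27me3 was at the end of 38 (64.4%), beside 50.2% of all such genes.

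**Figure D5:**
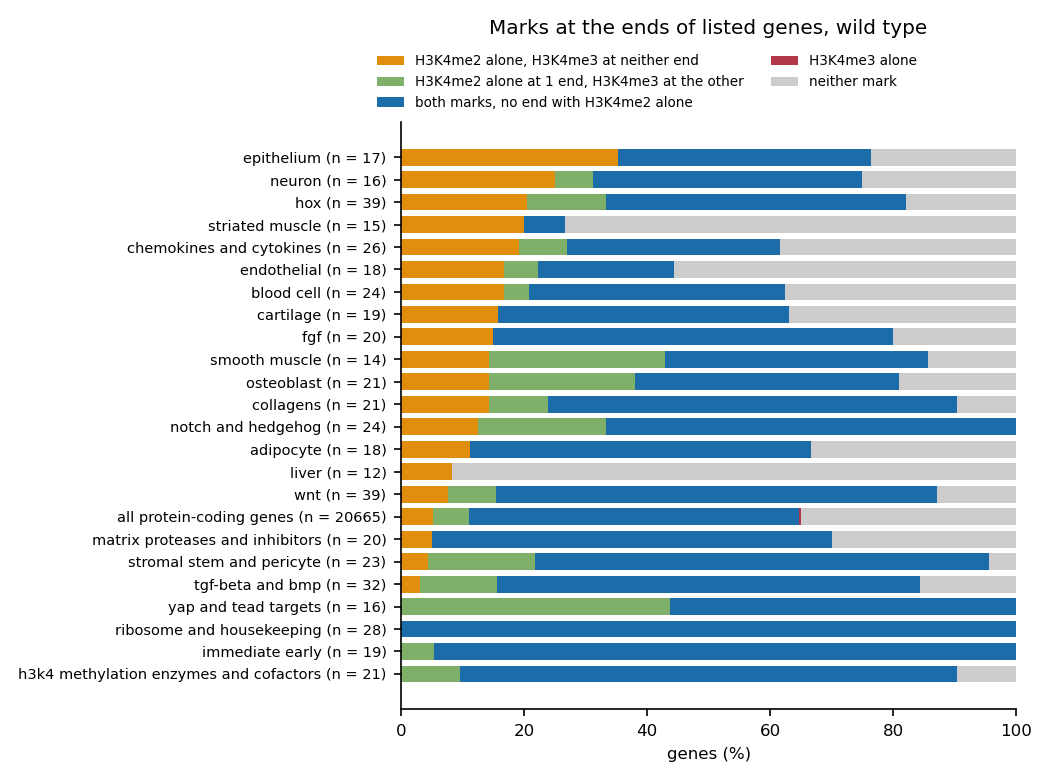
Share of the genes of each list (%) by the marks at their ends, wild type, with the number of genes found in brackets, ordered by the share with H3K4me2 alone and H3K4me3 at neither end. Epithelial genes have the highest such share (6 of 17) beside 5.12% of all genes, and all 28 ribosomal and housekeeping genes have both marks.

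More than 1000 bp from every gene end, H3K4me2 islands without H3K4me3 were at most 26000 bp wide. H3K4me2 islands with H3K4me3, at any place, reached 84000 bp. The widest, chr2:38526801-38552800 (26 kb), lay inside Nek6, a mitotic kinase, and the next, 24 kb, inside Gramd4, each 1.4 kb from the nearest H3K4me3 island. The third, chr15:62109801-62130400 (20.6 kb), lay inside no named protein-coding gene. It was 119 kb from the nearest end of one, that of Myc, and 58.6 kb from the nearest H3K4me3. Non-coding genes were not considered here. Islands of 18 to 16.2 kb followed near Tpra1 and inside Rxra, a partner of nuclear receptors, Utrn, a relative of dystrophin, Sh3pxd2a, an adaptor of invasive cell protrusions, and Zmiz1, a transcriptional coactivator. ASXL1 covered the islands at Nek6, Tpra1, Sh3pxd2a and Zmiz1 in full, 19.6 kb of the island near Myc and 2.8 kb of the island at Rxra. H3K27me3 was at none of these 8. The nearest H3K4me3 was 1.6 kb away at Sh3pxd2a, and between 15.2 and 27 kb away at Tpra1, Rxra, Utrn and Zmiz1.

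Of 919 autosomal miRNA hairpins, 43 (4.68%, interval 3.41 to 6.25%) lay inside an H3K4me2 island without H3K4me3, 202 (22%) under both marks and 638 (69.4%) outside H3K4me2. The widest such islands with known miRNA clusters held the miR-23b, miR-27b and miR-24-1 cluster on chromosome 13 (6.8 kb, chr13:63299801-63306600) and the miR-29a and miR-29b-1 cluster on chromosome 6 (6.4 kb, chr6:31058001-31064400). Both islands lay whole under ASXL1 and had no H3K27me3, and H3K4me3 was 18.4 and 8.8 kb away. Their mature sequences from RefSeq are shown with the seed, bases 2 to 8, in capitals. The 3p forms of both miR-29 genes share the seed AGCACCA and are known for targeting collagen messages.
mmu-miR-23b-5p: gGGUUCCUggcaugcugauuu
mmu-miR-27b-3p: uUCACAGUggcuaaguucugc
mmu-miR-24-3p: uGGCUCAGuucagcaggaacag
mmu-miR-29a-3p: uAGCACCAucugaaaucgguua
mmu-miR-29b-3p: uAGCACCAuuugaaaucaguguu
The hairpins of miR-9-3, known from neurons, and miR-375, known from pancreatic islets, lay in narrow islands of 1.6 and 1.2 kb that H3K27me3 covered in full. The muscle miRNA miR-206 lay in a 1.6 kb island without ASXL1 or H3K27me3. These miRNAs were named after their values had been seen.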

How the data were processed

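Chromatin immunoprecipitation libraries of wild type for H3K4me2, H3K4me3, ASXL1 and H3K27me3 were used, and the lists of Asxl1-/- only to count islands. Per the submitters' processing notes, BWA, SICER 1.1 (an island caller) and the build mm10 were used. Settings, background library and error limit of the caller are not given in the sources used. The authors' deposited lists hold coordinates only, on a 200 bp grid, called per library, with no count or score.

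Islands were compared as intervals with pandas 2.3.3, scipy 1.17.1 and numpy 2.4.6 under Python 3.11.15, with 1 bp as the least overlap, and the counts of overlapping islands were equal to those of bedtools 2.31.1. Figures were drawn with matplotlib 3.10.9. Genes, starts and sequences came from RefSeq tables of GRCm38.p6. Strand was read for 79.6% of the genes, and starts on chromosome 18 were not analysed here. Exons and untranslated regions were not assigned. Of 503 listed genes 502 were found. As a check of the code, 2000 simulated islands were given their known class. In the real lists, the H3K4me3 islands at both ends of 200 genes with both marks were removed. All 200 were then classed with H3K4me2 alone, an outcome that the rule fixes in advance, so it checks the code only.

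Groups follow the labels, and with 1 library per target no test was made. The members and gene lists were chosen with earlier results of these data known. Named genes are the 12 and 8 widest of the groups with H3K4me2 alone at an end, the 8 widest H3K4me3 islands without H3K4me2 at an end, the 8 widest distal islands, the 6 largest overhangs and up to 4 genes of each list (all of a count of 5 or fewer). Others are said to be chosen after their values were seen, and the other members of a list are named to complete its count. Some genes that the rule takes are left unnamed, while counts keep every gene. Alternatives changed the overlap, the width limit, the list length, the window and the gene set.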

Additional observations from a re-analysis of the deposited data

How the results depend on the processing

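The labels carry no replicate numbers. No paired analysis was possible because each target is 1 library. No read counts came with the lists, so weaker signal below the caller's threshold cannot be told apart from its absence.

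The values moved most when the H3K4me2 list alone was cut, widest islands first, to the covered length of the H3K4me3 list, which lost no island. H3K4me2 islands without H3K4me3 were 12.6%, H3K4me3 islands without H3K4me2 55.4%, ASXL1 was at 67% and H3K27me3 at 4.66% of the former, the gene groups held 195 and 556 genes, and H3K27me3 was at 32.6% of starts with H3K4me2 alone. This cut takes out 27431 H3K4me2 islands and keeps none under 5200 bp, so length and least width changed together. With the wider 50% of each list, the first 4 values were 51.7%, 1.37%, 58.6% and 14.6%, and the larger overhang was downstream in 62.8% of pairs. With an overlap of 50% or more of the island required, they were 59.5%, 0.742%, 35% and 11.3%. With the other mark widened by 1000 bp, H3K4me2 islands without H3K4me3 were 50.7%. With islands of 1000 bp or wider, ASXL1 was at 32.3% of them. ASXL1 covering 50% or more of the island was found at 29.7%, and H3K27me3 so at 9.16%. Over all 47042 annotated genes, the group with H3K4me3 at neither end held 2951. Taking out genes with another gene end within 2000 bp left 13801 genes. The group with H3K4me3 at the other end held 609 of them (4.41%, beside 5.87% of all genes). H3K27me3 was at 64.7% of their starts with H3K4me2 alone. Over all genes, it was at 64.5% of such starts where the island held no H3K4me3. The alternatives for the H3K27me3 share of starts, for the downstream overhang and for cover of 50% or more by ASXL1 or H3K27me3 were chosen after seeing the data. The other alternatives, among them the X chromosome and windows of 0, 2000 and 5000 bp, kept each value within its interval or each count within 1.5 times, and the median overhang was 400 bp in all of its 4 alternatives.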

Other observations

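H3K4me2 without H3K4me3 was unevenly spread along the chromosomes. Over 2466 stretches of 1 Mb, islands of this kind covered a median of 1.06% and 6.12% at the 95th percentile. They covered 18.5% of chr8:122000001-123000000, the highest share, where ASXL1 covered 43.3% and H3K4me3 12%. They covered 14.5% of chr5:118000001-119000000 and 14.2% of chr2:167000001-168000000. The stretch that holds the 20.6 kb island near Myc, chr15:62000001-63000000, ranked 9 by this share, with 10.5% under such islands and 1.68% under H3K4me3. No cause was tested, and the stretches were picked for these values.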
